A study of Rattus norvegicus and Bos taurus with 6 samples.

Results

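The genes of Wnt signalling were followed through 6 libraries of single-nucleus RNA sequencing (snRNAseq) from rat and cow fat. The set held every gene whose symbol began with Wnt or Fzd and a number, or with Sfrp, Dkk or Rspo. To these were added Frzb, Wif1, Lrp5, Lrp6, Lgr4 to Lgr6, Tcf7, Tcf7l1, Tcf7l2, Lef1, Axin2 and Ctnnb1. The symbols gave 55 members of 38697 genes in the annotation of the 4 rat libraries made with the Parse kit, 55 of 25629 in that of the rat library made with the 10x kit, and 54 of 36075 in that of the cow library, where no gene carried the symbol FZD4. By role they were 19 Wnt ligands, 10 Frizzled receptors, 2 co-receptors, 11 inhibitors, 4 R-spondins, 3 LGR receptors and 6 genes of the nuclear arm of the pathway.

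Wnt proteins are secreted ligands that bind a Frizzled receptor and, in the canonical branch, the co-receptor LRP5 or LRP6. The bound complex protects β-catenin, the product of Ctnnb1, from destruction, so that it enters the nucleus and activates target genes with the transcription factors TCF and LEF. In fat, canonical Wnt signalling is known to hold back the formation of adipocytes from their precursors, and secreted inhibitors such as the SFRP and DKK proteins limit it.

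All 5 rat libraries came from male Dahl SS rats (strain SS/HsdMcwiCrl) on a normal diet, with no treatment or transgene and an age not given in the sources used here. The white depots were mesenteric perivascular fat (mesPVAT), sequenced once with the 10x kit and once with the Parse kit, and retroperitoneal fat (RP fat), and the brown depots were thoracic aortic perivascular fat (taPVAT) and subscapular brown fat (BAT). The cow library came from subcutaneous white fat (WAT) of the flank of lactating Holstein cows, all female. Each condition had 1 library, so that no test between conditions was possible, and every interval given here covers counting error only.

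Depth differed between the libraries. From 845316 to 16827260 molecules (UMIs) were counted over 2297 to 5887 nuclei, and the median nucleus held 3530 UMIs in cow WAT, 1706 in BAT, 1246 in taPVAT, 346 in the Parse library labelled mesPVAT, 213 in the one labelled RP fat and 161 in the 10x mesPVAT library. The study's own account ranks RP fat above mesPVAT in the number of nuclei and in the median molecules per nucleus, the reverse of the files, so the labels of these 2 white Parse libraries may be exchanged. The labels were followed throughout. An exchange would turn every difference between the 2 and swap their values wherever either is named, while statements that hold for both would stand. No nuclear barcode was shared by any pair of libraries. The 10x library belonged to another batch in the labels, with nuclei isolated by another protocol, and taPVAT was spun at a lower speed than the white depots. Olfactory receptor genes were picked as a measure of stray reads after the data were seen, and whether fat uses any of them was not tested. They summed to 1090 counts per 1000000 (CPM) in RP fat, 707 in mesPVAT, 182 in the 10x library, 156 in cow WAT, 125 in taPVAT and 110.3 in BAT, where CPM is a gene's UMIs over the UMIs of its library. The white Parse libraries were therefore the 2 with the most of this signal, and levels of a few CPM in them are given with that value in view. Each sum ran over many genes, 1161 in the Parse rat libraries, 1159 in the 10x library and 669 in cow WAT. The mean per olfactory gene was thus far below the sum, and the cow sum held fewer genes than the rat sums.

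Nuclei were put in a class where they held a UMI of only 1 of 5 genes, namely Plin1, a lipid droplet protein of adipocytes, Ptprb, of endothelial cells, Pdgfra, of adipose stem and precursor cells (ASPCs), Notch3, of pericytes and smooth muscle, and Msln, of mesothelium. MSLN was not named in the cow annotation. Such single-positive nuclei numbered 1848 of 2699 in BAT, 1608 of 2708 in taPVAT, 1022 of 2297 in cow WAT, 931 of 3028 in mesPVAT, 1276 of 5887 in the 10x library and 472 of 2805 in RP fat. The other markers of each class were then summed without the class gene. Adipocyte markers reached 9186 CPM in the Plin1 nuclei of taPVAT, 10214 in BAT, 5136 in cow WAT, 10676 in the 10x library and 5919 in mesPVAT, but 2107 in RP fat. They were not absent elsewhere, at 1899 CPM in the Ptprb nuclei of taPVAT and 1909 in those of BAT, against 289 in cow WAT. Endothelial markers stood at 1450.1 to 6563 CPM in Ptprb nuclei over the 6 libraries. The Notch3 nuclei of taPVAT also carried skeletal muscle markers at 3611 CPM, and those of BAT at 2228 CPM. Brown fat markers (Ucp1, Cidea, Ppargc1a and Dio2) summed to 4635 CPM in the Plin1 nuclei of taPVAT and 5117 in those of BAT, against 272 in mesPVAT and 452 in RP fat.

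The members together took 3488 CPM in taPVAT, 3368 in BAT, 2709 in the 10x library, 2299 in RP fat, 2147 in mesPVAT and 1780.4 in cow WAT. Of the 55, 51 reached 10 UMIs in at least 1 library. The exceptions were Wnt1 with 0 to 5 UMIs over the libraries, Wnt8a with 1 to 6, Dkk1 with 0 to 3 and Fzd10 with 0 to 7. In each library 20 to 47 members reached 10 UMIs. Below, a level is in CPM over all nuclei of a library and is followed by its 95% Poisson interval and its UMIs. A level over all nuclei cannot tell fewer cells of a type from less RNA per cell, and levels are compared between libraries for the same gene and not between genes, since 3′ and whole-transcript counts were not set per length.

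**Figure D1:**
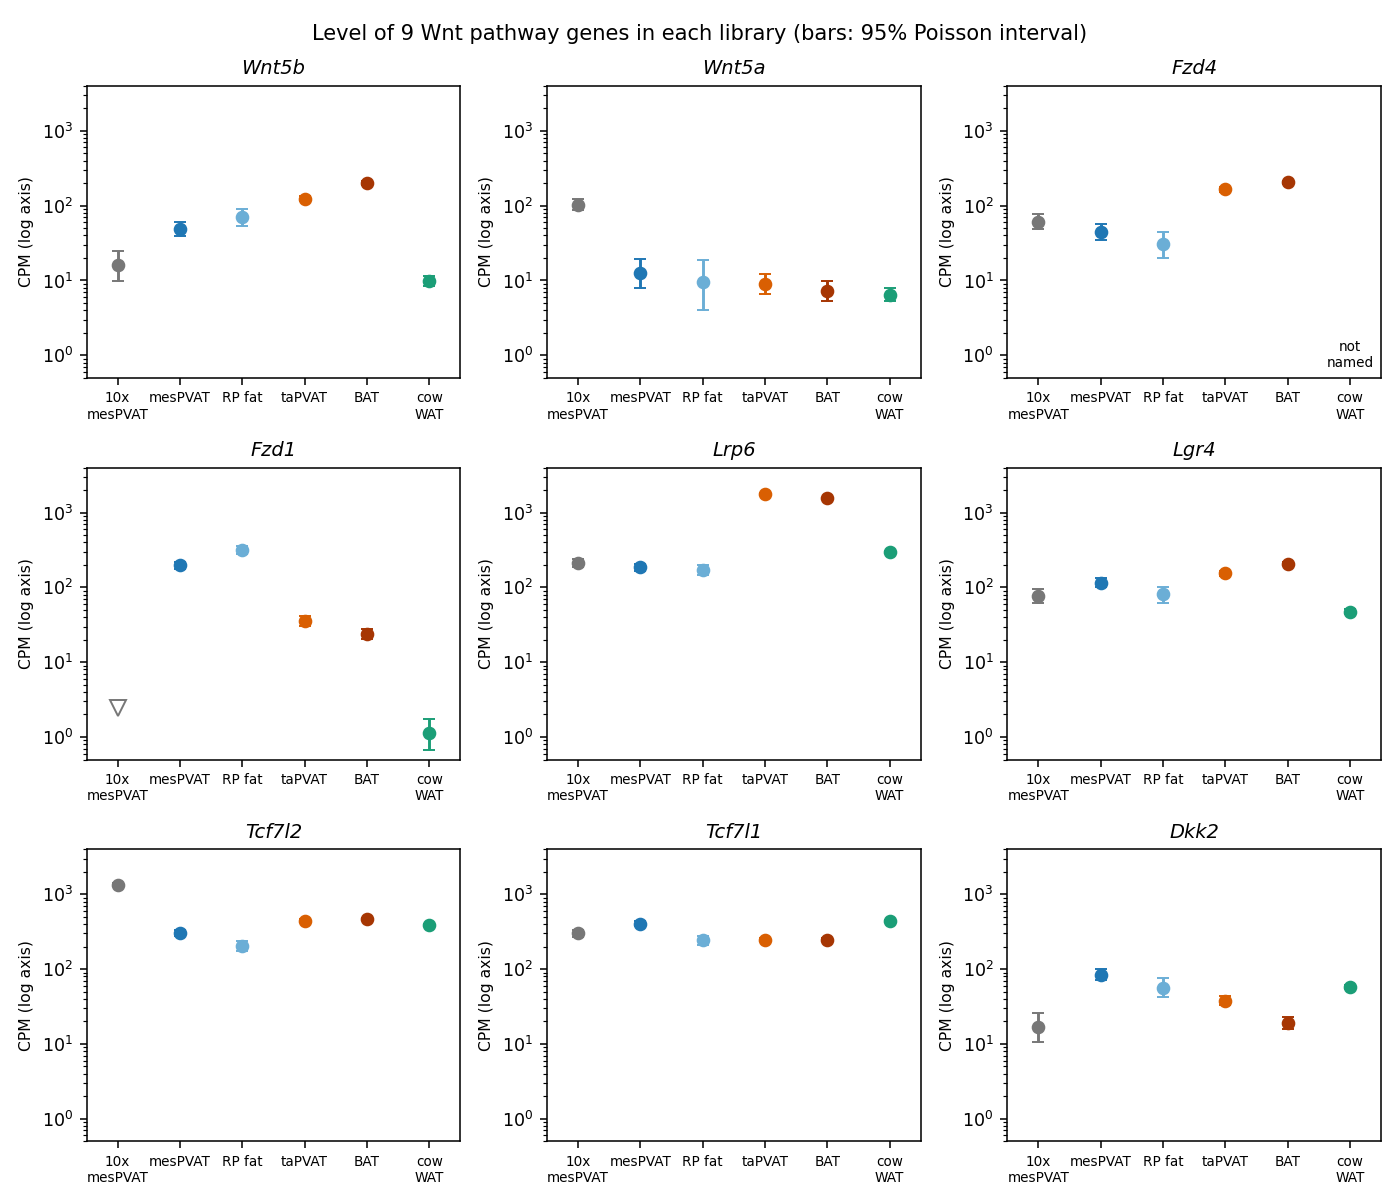
Level of 9 members in the 6 libraries, in CPM on a log axis, 1 point per library with its 95% Poisson interval. An open triangle marks the limit of 3 UMIs where none was counted, and Fzd4 was not named in cow. Lrp6 stood at 1784 CPM in taPVAT and 1548 in BAT, above the other 4 libraries (172 to 302 CPM), whereas Fzd1 stood at 198 and 317 CPM in mesPVAT and RP fat and at most at 35.5 CPM elsewhere.

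Of the co-receptors, Lrp6 differed between brown and white libraries, while Lrp5 did not differ beyond its intervals among the rat ones. Lrp6, which passes the Wnt signal into the cell with a Frizzled receptor, was at 1784 CPM (1747 to 1821, 9098 UMIs) in taPVAT and at 1548 (1517 to 1579, 9780 UMIs) in BAT. It was at 185 CPM (165 to 207, 307 UMIs) in mesPVAT and at 172 (145 to 202, 145 UMIs) in RP fat, and at 214 CPM (189 to 242, 265 UMIs) in the 10x mesPVAT library and at 302 (294 to 310.3, 5080 UMIs) in the cow library. Both brown libraries stood above all other libraries, with no overlap of intervals. The 2 sublibraries into which each Parse sample had been split gave 1814 and 1752 CPM in taPVAT, 1569 and 1527 CPM in BAT, 196 and 174 CPM in mesPVAT and 190.1 and 147 CPM in RP fat. Lrp5, the other co-receptor, was at 77.6 CPM (62.8 to 94.7, 96 UMIs) in the 10x mesPVAT library, 83.9 (70.5 to 99.1, 139 UMIs) in mesPVAT and at 89.9 (70.8 to 112, 76 UMIs) in RP fat. In the deeper libraries it was at 100 CPM (91.5 to 109, 510 UMIs) in taPVAT, 98.5 (90.9 to 106, 622 UMIs) in BAT and at 124 (118 to 129, 2078 UMIs) in the cow library. All 5 rat intervals of Lrp5 shared values with one another, and cow WAT was the highest. In GRCr8, Lrp6 lies at chr4:168997937-169131716, and no other RefSeq gene overlaps it.

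Among the ligands, Wnt5b was higher in the brown libraries. Wnt5b, a ligand of the β-catenin-independent branch, was at 125 CPM (115 to 135, 636 UMIs) in taPVAT and at 202 (191 to 213, 1275 UMIs) in BAT. It was lower in the others, at 16.2 CPM (9.87 to 25.0, 20 UMIs) in the 10x mesPVAT library, 49.5 (39.4 to 61.4, 82 UMIs) in mesPVAT, 71.0 (54.2 to 91.4, 60 UMIs) in RP fat and at 9.75 (8.31 to 11.4, 164 UMIs) in the cow library. BAT was the highest, taPVAT the next, and their intervals did not overlap with each other or with any other library. Wnt5b lies at chr4:154281852-154406081 (GRCr8), where it overlaps Fbxl14 and another RefSeq gene, so reads of these cannot be told apart here without strand. In all, 15 members overlap another RefSeq gene, among them Lrp5, Tcf7l1, Tcf7l2, Lef1, Wif1, Lgr5, Fzd3, Sfrp4 and Wnt11, with the same limit. Wnt5a, its close relative, showed another order, at 103 CPM (86.3 to 123, 128 UMIs) in the 10x mesPVAT library, 12.7 (7.85 to 19.4, 21 UMIs) in mesPVAT and at 9.02 (6.60 to 12.0, 46 UMIs) in taPVAT. In BAT it was at 7.28 CPM (5.33 to 9.71, 46 UMIs), in RP fat at 9.46 CPM (4.09 to 18.6, 8 UMIs) and in cow WAT at 6.48 CPM (5.32 to 7.81, 109 UMIs). The 10x mesPVAT library alone stood apart from the rest. Wnt11, also a ligand of that branch, was at 17.0 CPM (10.5 to 25.9, 21 UMIs) in the 10x mesPVAT library, 9.05 (5.07 to 14.9, 15 UMIs) in mesPVAT and at 21.3 (12.6 to 33.6, 18 UMIs) in RP fat. The other libraries gave 13.5 CPM (10.5 to 17.1, 69 UMIs) in taPVAT, 20.3 (16.9 to 24.1, 128 UMIs) in BAT and at 13.8 (12.1 to 15.7, 233 UMIs) in the cow library. Most of these intervals overlapped, and neighbours in the order of levels did not differ beyond them.

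The remaining ligands were low, and most were higher in the white Parse libraries than in the brown ones. Wnt2 was at 32.6 CPM (24.5 to 42.5, 54 UMIs) in mesPVAT and at 49.7 (35.8 to 67.2, 42 UMIs) in RP fat, at 4.71 CPM (3.02 to 7.0, 24 UMIs) in taPVAT and at 3.64 (2.31 to 5.46, 23 UMIs) in BAT and at 10.4 CPM (8.92 to 12.1, 175 UMIs) in cow WAT, and had no UMI in the 10x library. Its gene ID differed between the 2 rat annotations, the only member for which it did. Wnt2b was at 29.9 CPM (21.1 to 41.2, 37 UMIs) in the 10x mesPVAT library, 9.05 (5.07 to 14.9, 15 UMIs) in mesPVAT and at 20.1 (11.7 to 32.2, 17 UMIs) in RP fat, and at 3.53 CPM (2.09 to 5.58, 18 UMIs) in taPVAT, 1.74 (0.869 to 3.12, 11 UMIs) in BAT and at 1.84 (1.25 to 2.62, 31 UMIs) in the cow library. Wnt9a was at 16.2 CPM (9.87 to 25.0, 20 UMIs) in the 10x mesPVAT library, 12.7 (7.85 to 19.4, 21 UMIs) in mesPVAT and at 13.0 (6.50 to 23.3, 11 UMIs) in RP fat, and at 3.33 CPM (1.94 to 5.34, 17 UMIs) in taPVAT, 3.01 (1.81 to 4.70, 19 UMIs) in BAT and at 12.2 (10.6 to 14.0, 206 UMIs) in the cow library. In both cases the 3 white rat libraries gave higher levels than the 2 brown ones, and only for Wnt2b did an interval, that of mesPVAT, overlap a brown one. Wnt3a, a canonical ligand, was at 7.24 CPM (3.74 to 12.7, 12 UMIs) in mesPVAT and at 34.3 (23.0 to 49.3, 29 UMIs) in RP fat, at 2.16 CPM (1.08 to 3.86, 11 UMIs) in taPVAT and at 2.53 (1.45 to 4.11, 16 UMIs) in BAT and at 6.30 CPM (5.16 to 7.62, 106 UMIs) in cow WAT. Wnt7a was at 20.5 CPM (14.2 to 28.7, 34 UMIs) in mesPVAT and at 34.3 (23.0 to 49.3, 29 UMIs) in RP fat, at 3.73 CPM (2.24 to 5.82, 19 UMIs) in taPVAT and at 3.32 (2.06 to 5.08, 21 UMIs) in BAT and at 4.81 CPM (3.82 to 5.98, 81 UMIs) in cow WAT. RP fat gave the highest level of both. Wnt7b was at 15.1 CPM (9.77 to 22.3, 25 UMIs) in mesPVAT and at 28.4 (18.2 to 42.2, 24 UMIs) in RP fat, at 3.14 CPM (1.79 to 5.09, 16 UMIs) in taPVAT and at 1.58 (0.759 to 2.91, 10 UMIs) in BAT and at 3.45 CPM (2.62 to 4.46, 58 UMIs) in cow WAT. Wnt8b reached 10 UMIs at 8.45 CPM (4.62 to 14.2, 14 UMIs) in mesPVAT, 14.2 (7.33 to 24.8, 12 UMIs) in RP fat, 1.58 (0.759 to 2.91, 10 UMIs) in BAT and at 3.33 (2.51 to 4.32, 56 UMIs) in the cow library. Wnt9b did so at 20.1 CPM (11.7 to 32.2, 17 UMIs) in RP fat, 1.90 (0.981 to 3.32, 12 UMIs) in BAT and at 2.14 (1.5 to 2.96, 36 UMIs) in the cow library. Neither had a UMI in the 10x library.

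The other 6 ligands reached 10 UMIs in 1 or 2 libraries each, and cow WAT was among them for all but Wnt16. Wnt16 was at 12.7 CPM (7.85 to 19.4, 21 UMIs) in mesPVAT and at 2.53 (1.45 to 4.11, 16 UMIs) in BAT. Wnt4 was at 13.0 CPM (6.50 to 23.3, 11 UMIs) in RP fat and at 2.38 (1.70 to 3.24, 40 UMIs) in the cow library. Cow WAT alone gave 10 UMIs for Wnt3, at 4.58 CPM (3.61 to 5.72, 77 UMIs), for Wnt6, at 1.19 CPM (0.726 to 1.84, 20 UMIs), for Wnt10a, at 0.832 CPM (0.455 to 1.40, 14 UMIs), and for Wnt10b, an inhibitor of adipocyte formation in cultured cells, at 1.60 CPM (1.06 to 2.33, 27 UMIs). Cow WAT was the deepest library, and its limit for a gene with no UMI was 0.178 CPM, against 3.55 CPM in RP fat.

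Of the Frizzled receptors, Fzd4 was higher in the brown libraries and Fzd1 in the white Parse libraries. Fzd4 was at 166 CPM (154 to 177, 844 UMIs) in taPVAT and at 204 (194 to 216, 1292 UMIs) in BAT. It was at 61.4 CPM (48.4 to 76.9, 76 UMIs) in the 10x mesPVAT library, 44.7 (35.1 to 56.1, 74 UMIs) in mesPVAT and at 30.8 (20.1 to 45.1, 26 UMIs) in RP fat. Both brown libraries were above the white ones with no overlap, and BAT was above taPVAT. Fzd1 ran the other way, at 198 CPM (177 to 221, 328 UMIs) in mesPVAT and at 317 (280.2 to 357, 268 UMIs) in RP fat, then 35.5 CPM (30.5 to 41.0, 181 UMIs) in taPVAT and at 24.1 (20.4 to 28.2, 152 UMIs) in BAT, and 1.13 CPM (0.680 to 1.76, 19 UMIs) in cow WAT. Not 1 UMI of it was counted in the 10x library, where 3 UMIs would be 2.42 CPM, although the gene carried the same ID in both rat annotations. Fzd6 was at 139.8 CPM (119.7 to 162, 173 UMIs) in the 10x mesPVAT library, 21.7 (15.2 to 30.1, 36 UMIs) in mesPVAT and at 39.0 (26.9 to 54.8, 33 UMIs) in RP fat. It was at 28.4 CPM (24.0 to 33.5, 145 UMIs) in taPVAT, 24.7 (21.0 to 28.9, 156 UMIs) in BAT and at 23.5 (21.3 to 26.0, 396 UMIs) in the cow library, so that the 10x library was the highest. Fzd3 was at 10.5 CPM (5.59 to 18.0, 13 UMIs) in the 10x mesPVAT library, 16.9 (11.2 to 24.4, 28 UMIs) in mesPVAT and at 22.5 (13.5 to 35.1, 19 UMIs) in RP fat. It was at 7.25 CPM (5.11 to 10.0, 37 UMIs) in taPVAT, 5.38 (3.73 to 7.52, 34 UMIs) in BAT and at 24.8 (22.5 to 27.3, 417 UMIs) in the cow library. Here cow WAT and the white Parse libraries were above both brown ones.

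Fzd7 was at 9.66 CPM (5.52 to 15.7, 16 UMIs) in mesPVAT, 21.3 (12.6 to 33.6, 18 UMIs) in RP fat, 5.10 (3.33 to 7.47, 26 UMIs) in taPVAT, 2.85 (1.69 to 4.50, 18 UMIs) in BAT and at 2.02 (1.40 to 2.82, 34 UMIs) in the cow library. Fzd8 was at 19.4 CPM (12.4 to 28.9, 24 UMIs) in the 10x mesPVAT library, 2.75 (1.5 to 4.61, 14 UMIs) in taPVAT, 3.01 (1.81 to 4.70, 19 UMIs) in BAT and at 1.78 (1.2 to 2.54, 30 UMIs) in the cow library. Fzd5 was at 9.70 CPM (5.01 to 16.9, 12 UMIs) in the 10x mesPVAT library, 6.64 (3.31 to 11.9, 11 UMIs) in mesPVAT, 2.55 (1.36 to 4.36, 13 UMIs) in taPVAT and at 3.62 (2.77 to 4.66, 61 UMIs) in the cow library. None of these 3 passed 25 CPM in any library. Fzd2 reached 10 UMIs in taPVAT only, at 2.75 CPM (1.5 to 4.61, 14 UMIs), and Fzd9 in BAT only, at 2.37 CPM (1.33 to 3.92, 15 UMIs).

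Among the inhibitors, Dkk2 and Wif1 were higher in the white Parse libraries than in the brown ones, for Dkk2 with overlapping intervals between RP fat and taPVAT. Dkk2, which binds LRP5 and LRP6, was at 17.0 CPM (10.5 to 25.9, 21 UMIs) in the 10x mesPVAT library, 83.9 (70.5 to 99.1, 139 UMIs) in mesPVAT and at 56.8 (41.9 to 75.3, 48 UMIs) in RP fat. It was at 37.8 CPM (32.7 to 43.6, 193 UMIs) in taPVAT, 19.1 (15.9 to 22.9, 121 UMIs) in BAT and at 58.1 (54.5 to 61.9, 978 UMIs) in the cow library. Mesenteric fat gave the highest level with the Parse kit and the lowest with the 10x kit, where the interval overlapped that of BAT. Wif1, a secreted protein that binds Wnt ligands, was at 50.1 CPM (39.9 to 62.1, 83 UMIs) in mesPVAT and at 73.3 (56.2 to 94.0, 62 UMIs) in RP fat. It was at 17.8 CPM (14.4 to 21.9, 91 UMIs) in taPVAT, 19.6 (16.3 to 23.4, 124 UMIs) in BAT and at 7.25 (6.02 to 8.66, 122 UMIs) in the cow library. The 2 white Parse libraries were the highest. Dkk3 was at 17.5 CPM (11.7 to 25.1, 29 UMIs) in mesPVAT, 28.4 (18.2 to 42.2, 24 UMIs) in RP fat, 10.6 (7.95 to 13.8, 54 UMIs) in taPVAT, 3.48 (2.18 to 5.27, 22 UMIs) in BAT and at 10.3 (8.81 to 11.9, 173 UMIs) in the cow library. Frzb, a secreted Frizzled-like decoy, was at 7.85 CPM (4.18 to 13.4, 13 UMIs) in mesPVAT, 24.8 (15.4 to 38.0, 21 UMIs) in RP fat, 4.51 (2.86 to 6.77, 23 UMIs) in taPVAT, 6.65 (4.79 to 8.99, 42 UMIs) in BAT and at 2.67 (1.95 to 3.58, 45 UMIs) in the cow library.

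Of the SFRP proteins, secreted decoys that carry a Frizzled-like domain, SFRP5 and SFRP1 stood apart in cow and SFRP2 and SFRP4 did not. SFRP5 was at 10.9 CPM (9.41 to 12.6, 184 UMIs) in cow WAT and had 0 to 2 UMIs in each of the 5 rat libraries. SFRP4 was at 16.3 CPM (14.4 to 18.3, 274 UMIs) in cow WAT. In rat Sfrp4 was at 12.7 CPM (7.85 to 19.4, 21 UMIs) in mesPVAT, 11.8 (8.98 to 15.1, 60 UMIs) in taPVAT and at 1.74 (0.869 to 3.12, 11 UMIs) in BAT. Its 5 UMIs in the 10x library and 7 in RP fat left wide intervals. Sfrp2 was at 6.08 CPM (4.13 to 8.63, 31 UMIs) in taPVAT and at 5.76 (4.67 to 7.03, 97 UMIs) in the cow library, with 8 UMIs in BAT and at most 6 in each white rat library. Sfrp1 was at 11.3 CPM (6.18 to 19.0, 14 UMIs) in the 10x mesPVAT library, 16.3 (10.7 to 23.7, 27 UMIs) in mesPVAT and at 28.4 (18.2 to 42.2, 24 UMIs) in RP fat. It was at 15.9 CPM (12.6 to 19.7, 81 UMIs) in taPVAT, 5.54 (3.86 to 7.70, 35 UMIs) in BAT and at 0.891 (0.499 to 1.47, 15 UMIs) in the cow library. Cow WAT was the lowest library for SFRP1 and taPVAT was above BAT for all 3 of Sfrp1, Sfrp2 and Sfrp4. Dkk4 and Dkkl1, a relative of the DKK proteins, reached 10 UMIs only in cow WAT, at 0.654 CPM (0.326 to 1.17, 11 UMIs) and 0.951 (0.543 to 1.54, 16 UMIs). Levels in cow and rat came from different annotations and were set side by side without a ratio.

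R-spondins strengthen the Wnt signal by binding LGR receptors. Rspo1 was at 46.1 CPM (34.9 to 59.7, 57 UMIs) in the 10x mesPVAT library, 11.5 (6.91 to 17.9, 19 UMIs) in mesPVAT and at 15.4 (8.19 to 26.3, 13 UMIs) in RP fat. It was at 4.71 CPM (3.02 to 7.0, 24 UMIs) in taPVAT and at 2.02 (1.40 to 2.82, 34 UMIs) in the cow library, with 7 UMIs in BAT. The 10x mesPVAT library was the highest. Rspo2 was at 34.4 CPM (26.1 to 44.6, 57 UMIs) in mesPVAT, 50.9 (36.8 to 68.5, 43 UMIs) in RP fat, 3.92 (2.40 to 6.06, 20 UMIs) in taPVAT, 5.54 (3.86 to 7.70, 35 UMIs) in BAT and at 12.7 (11.0 to 14.5, 213 UMIs) in the cow library. Rspo3 was at 20.5 CPM (14.2 to 28.7, 34 UMIs) in mesPVAT, 35.5 (23.9 to 50.7, 30 UMIs) in RP fat, 5.29 (3.49 to 7.70, 27 UMIs) in taPVAT, 3.32 (2.06 to 5.08, 21 UMIs) in BAT and at 18.7 (16.6 to 20.8, 314 UMIs) in the cow library. Rspo4 was at 15.7 CPM (10.2 to 23.0, 26 UMIs) in mesPVAT, 24.8 (15.4 to 38.0, 21 UMIs) in RP fat, 4.90 (3.17 to 7.24, 25 UMIs) in taPVAT, 5.86 (4.12 to 8.07, 37 UMIs) in BAT and at 3.62 (2.77 to 4.66, 61 UMIs) in the cow library. For these 3 the white Parse libraries were the highest and the 10x library had at most 6 UMIs. The Rspo3 interval of cow WAT lay within that of mesPVAT, so these libraries did not differ beyond counting error. Lgr4, the broadest of the LGR receptors, was at 76.8 CPM (62.1 to 93.8, 95 UMIs) in the 10x mesPVAT library, 116 (100.1 to 134, 192 UMIs) in mesPVAT and at 80.4 (62.5 to 102, 68 UMIs) in RP fat. It was at 154 CPM (144 to 166, 787 UMIs) in taPVAT, 208 (197 to 219.7, 1315 UMIs) in BAT and at 47.3 (44.1 to 50.7, 796 UMIs) in the cow library, with BAT the highest. Lgr5 was at 33.8 CPM (25.5 to 43.9, 56 UMIs) in mesPVAT, 73.3 (56.2 to 94.0, 62 UMIs) in RP fat, 7.65 (5.44 to 10.4, 39 UMIs) in taPVAT, 5.86 (4.12 to 8.07, 37 UMIs) in BAT and at 8.62 (7.27 to 10.1, 145 UMIs) in the cow library. Lgr6 was at 41.6 CPM (32.4 to 52.7, 69 UMIs) in mesPVAT, 73.3 (56.2 to 94.0, 62 UMIs) in RP fat, 27.4 (23.1 to 32.4, 140 UMIs) in taPVAT, 36.4 (31.9 to 41.4, 230 UMIs) in BAT and at 4.81 (3.82 to 5.98, 81 UMIs) in the cow library. RP fat was the highest library for both, and the 10x library held 5 and 4 UMIs of them.

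In the nuclear arm, Tcf7l2, the TCF factor best known from diabetes genetics, was at 1339.8 CPM (1276 to 1406, 1658 UMIs) in the 10x mesPVAT library, 305 (279 to 333, 506 UMIs) in mesPVAT and at 204 (174 to 236, 172 UMIs) in RP fat. It was at 446 CPM (428 to 465, 2274 UMIs) in taPVAT, 465 (448 to 482, 2938 UMIs) in BAT and at 387 (378 to 397, 6519 UMIs) in the cow library. The 10x library stood far above the rest. Tcf7l1, a factor that mostly represses, was at 303 CPM (273 to 335, 375 UMIs) in the 10x mesPVAT library, 403 (373 to 435, 668 UMIs) in mesPVAT and at 242 (210.4 to 278, 205 UMIs) in RP fat. It was at 248 CPM (234 to 262, 1264 UMIs) in taPVAT, 247 (235 to 259.6, 1561 UMIs) in BAT and at 439.9 (430.0 to 450.1, 7403 UMIs) in the cow library, and taPVAT and BAT did not differ beyond their intervals. Ctnnb1 was at 100.2 CPM (83.3 to 119.5, 124 UMIs) in the 10x mesPVAT library, 57.3 (46.4 to 70.1, 95 UMIs) in mesPVAT and at 40.2 (27.9 to 56.2, 34 UMIs) in RP fat. It was at 104 CPM (95.3 to 113, 530 UMIs) in taPVAT, 120.0 (112 to 129, 758 UMIs) in BAT and at 141 (136 to 147, 2379 UMIs) in the cow library. RP fat gave the lowest level, with an interval that overlapped that of mesPVAT. Axin2, a feedback inhibitor that is itself induced by Wnt signalling, was at 38.8 CPM (28.6 to 51.4, 48 UMIs) in the 10x mesPVAT library, 60.4 (49.1 to 73.4, 100 UMIs) in mesPVAT and at 39.0 (26.9 to 54.8, 33 UMIs) in RP fat. It was at 28.6 CPM (24.2 to 33.7, 146 UMIs) in taPVAT, 19.1 (15.9 to 22.9, 121 UMIs) in BAT and at 7.19 (5.97 to 8.59, 121 UMIs) in the cow library, so that mesPVAT was the highest and cow WAT the lowest. The interval of mesPVAT overlapped those of the 10x library and RP fat. Lef1 was at 39.2 CPM (30.3 to 50.0, 65 UMIs) in mesPVAT, 65.1 (49.0 to 84.7, 55 UMIs) in RP fat, 24.3 (20.2 to 29.0, 124 UMIs) in taPVAT, 14.1 (11.3 to 17.3, 89 UMIs) in BAT and at 12.6 (11.0 to 14.4, 212 UMIs) in the cow library. Tcf7 was at 16.9 CPM (11.2 to 24.4, 28 UMIs) in mesPVAT, 21.3 (12.6 to 33.6, 18 UMIs) in RP fat, 12.2 (9.32 to 15.6, 62 UMIs) in taPVAT, 6.01 (4.26 to 8.26, 38 UMIs) in BAT and at 11.1 (9.52 to 12.8, 186 UMIs) in the cow library. The brown libraries gave lower levels than the white Parse ones for both, for Tcf7 with overlapping intervals between taPVAT and the white libraries, and the 10x library had 3 and 8 UMIs.

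The classes of nuclei were compared within each library, which needs no second library. A gene was compared where it had at least 20 UMIs in single-positive nuclei, and was called to the 1 class of at least 50 nuclei in which its level was highest, where it had at least 10 UMIs there and was at least 2-fold higher than in all other single-positive nuclei together. A gene thus has at most 1 call in a library, and other classes in which it was also high are not counted. Folds are ratios of CPM within those nuclei, followed by an exact 95% interval. In taPVAT 13 of 21 members compared were called to a class, where 31.0% of 11325 genes were. In BAT 14 of 20 were called, where 38.1% of 12042 genes were. In both libraries the Plin1 nuclei took the most, with 6 members in taPVAT (background 13.0%) and 8 in BAT (17.5%).

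**Figure D2:**
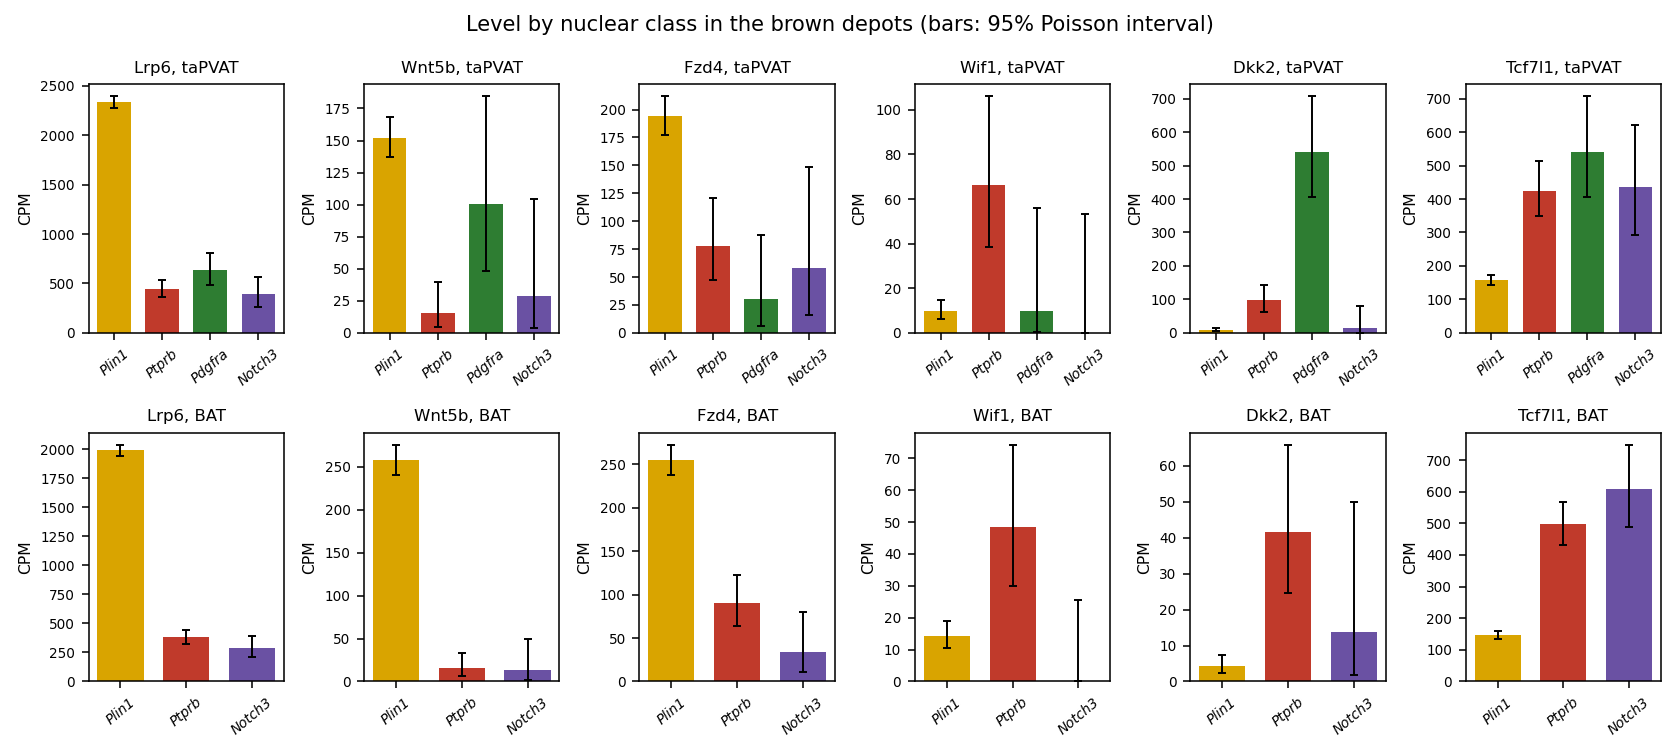
Level by class of nuclei in taPVAT (top) and BAT (bottom), in CPM on a linear axis from 0, with 95% Poisson intervals. Lrp6 stood at 2333 CPM in the Plin1 nuclei of taPVAT and 1988 in those of BAT, against 445 and 379 in Ptprb nuclei, and Dkk2 at 542 CPM in the Pdgfra nuclei of taPVAT.

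Called to Plin1 nuclei in both brown depots were the co-receptor Lrp6, the ligands Wnt5b and Wnt11, the receptors Fzd4 and Lgr6, and the feedback inhibitor Axin2. In taPVAT Lrp6 was at 2333 CPM (2274 to 2394, 5894 UMIs) in Plin1 nuclei, 445 (367 to 534, 114 UMIs) in Ptprb nuclei, 632 (486 to 809, 63 UMIs) in Pdgfra nuclei and 392 (258 to 569.6, 27 UMIs) in Notch3 nuclei. The fold of Plin1 nuclei over the rest was 4.91-fold (4.27 to 5.67). In BAT Lrp6 was at 1988 CPM (1941 to 2036, 6722 UMIs) in Plin1 nuclei, 379 (323 to 442, 164 UMIs) in Ptprb nuclei and 289.7 (209 to 392, 42 UMIs) in Notch3 nuclei, and the fold was 5.66-fold (4.94 to 6.53). Plin1 nuclei did not overlap with any other class in either depot. The adipocyte marker sum fell from Plin1 to Ptprb nuclei in the same direction (9186 to 1899 CPM in taPVAT and 10214 to 1909 CPM in BAT), and how much adipocyte RNA adds to the Lrp6 of other classes was not tested.

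Wnt5b in Plin1 nuclei of taPVAT was at 152 CPM (137 to 168, 384 UMIs) against 37.1 (21.2 to 60.2, 16 UMIs) in the other single-positive nuclei, 4.10-fold (2.49 to 7.24). In BAT it was at 258 CPM (241 to 275, 871 UMIs) against 18.3 (9.14 to 32.8, 11 UMIs) in the other single-positive nuclei, 14.1-fold (7.83 to 28.3). Within the other classes of taPVAT it ranged from 15.6 CPM (4.25 to 39.9, 4 UMIs) in Ptprb nuclei to 100.3 (48.1 to 184, 10 UMIs) in Pdgfra nuclei, the latter with an interval that overlapped that of Plin1 nuclei. Fzd4 was at 194 CPM (177 to 212, 490 UMIs) against 62.6 (41.2 to 91.0, 27 UMIs) in the other single-positive nuclei, 3.10-fold (2.10 to 4.75), in taPVAT. In BAT it was at 255 CPM (238 to 272, 862 UMIs) against 74.9 (54.6 to 100.2, 45 UMIs) in the other single-positive nuclei, 3.40-fold (2.52 to 4.70). Lgr6, a receptor of R-spondins, was at 31.7 CPM (25.1 to 39.4, 80 UMIs) against 11.6 (3.76 to 27.1, 5 UMIs) in the other single-positive nuclei, 2.73-fold (1.12 to 8.64), in taPVAT, and 4.04-fold (1.91 to 10.2) higher in BAT. The other 2 rested on few UMIs outside Plin1 nuclei. Wnt11 had 38 UMIs in Plin1 nuclei and 2 in the rest in taPVAT, 3.25-fold (0.839 to 27.8), and 87 against 4 in BAT, 3.87-fold (1.46 to 14.5). Axin2 had 82 against 7 UMIs in taPVAT, 2.00-fold (0.928 to 5.13), and 85 against 3 in BAT, 5.04-fold (1.67 to 24.9). The lower bounds of Wnt11 and Axin2 in taPVAT lay below 1, so their excess there was not beyond counting error.

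Lgr4 and Lef1 were called to Plin1 nuclei in BAT and not in taPVAT. Lgr4 was at 245 CPM (229 to 262, 829 UMIs) against 79.9 (58.9 to 106, 48 UMIs) in the other single-positive nuclei, 3.07-fold (2.29 to 4.20), in BAT. In taPVAT its highest class among those of at least 50 nuclei was Pdgfra, 1.58-fold (1.03 to 2.33). Lef1 was 3.50-fold (1.14 to 17.4) higher in the Plin1 nuclei of BAT, with 59 UMIs against 3. No test of the difference between the depots was possible.

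The promoters of these members are shown because Axin2, a direct target of β-catenin and TCF, shared its class with them. Of the 6 members called to Plin1 nuclei in both depots, 4 had a promoter in the RefSeq table of GRCr8, each of 300 bases that begin 250 bases before 1 annotated start. TCF and LEF factors bind a core that was searched for here as CTTTGA, or TCAAAG on the other strand, and matches are in capitals. The Axin2 window lies at chr10:94398535-94398834 (plus strand), that of Fzd4 at chr1:152692257-152692556 (plus), that of Lgr6 at chr13:49095808-49096107 (minus) and that of Wnt11 at chr1:162549110-162549409 (plus). The Axin2 and Wnt11 windows lie inside the span of their genes, at an internal start.
Axin2: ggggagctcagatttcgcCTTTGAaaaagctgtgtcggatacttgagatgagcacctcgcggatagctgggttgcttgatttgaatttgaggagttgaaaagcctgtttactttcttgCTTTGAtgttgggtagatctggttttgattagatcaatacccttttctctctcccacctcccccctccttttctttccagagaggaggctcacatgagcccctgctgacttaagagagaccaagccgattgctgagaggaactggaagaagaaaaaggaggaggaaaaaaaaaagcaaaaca
Fzd4: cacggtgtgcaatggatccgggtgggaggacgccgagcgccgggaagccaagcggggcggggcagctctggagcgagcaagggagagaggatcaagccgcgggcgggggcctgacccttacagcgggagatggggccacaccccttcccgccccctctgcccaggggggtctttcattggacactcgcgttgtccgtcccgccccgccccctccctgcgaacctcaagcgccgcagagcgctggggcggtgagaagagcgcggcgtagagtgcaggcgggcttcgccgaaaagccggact
Lgr6: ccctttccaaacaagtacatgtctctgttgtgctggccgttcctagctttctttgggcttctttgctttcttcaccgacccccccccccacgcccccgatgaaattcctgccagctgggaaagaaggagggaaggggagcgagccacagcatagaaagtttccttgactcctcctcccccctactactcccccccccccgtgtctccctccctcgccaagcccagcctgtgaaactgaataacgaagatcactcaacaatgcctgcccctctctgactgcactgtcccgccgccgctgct
Wnt11: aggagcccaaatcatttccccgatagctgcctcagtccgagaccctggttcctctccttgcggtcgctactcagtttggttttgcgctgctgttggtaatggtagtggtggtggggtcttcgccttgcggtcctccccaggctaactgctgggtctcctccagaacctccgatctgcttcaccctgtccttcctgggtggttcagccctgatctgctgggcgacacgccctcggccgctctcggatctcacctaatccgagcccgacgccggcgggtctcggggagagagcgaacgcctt
The Axin2 window held 2 matches and the other 3 held 0. The same letters stood in 5372 of 33365 distinct RefSeq promoters of that length (16.1%) and in 6 of the 39 member promoters (15.38%), so a match is a description of these letters and of no bound factor. The Fzd4 window had 70.7% G and C and 31 CG pairs, that of Axin2 45.7% and 5, and the median member promoter 65.3% and 24, against 51.7% and 7 over all promoters.

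Wif1, Fzd6 and Ctnnb1 were called to Ptprb nuclei in both brown depots, 3 of 21 members in taPVAT (background 9.78%) and, with Dkk2, 4 of 20 in BAT (13.8%). Wif1 was at 66.3 CPM (38.6 to 106, 17 UMIs) against 9.62 (6.29 to 14.1, 26 UMIs) in the other single-positive nuclei, 6.89-fold (3.51 to 13.2), in taPVAT and 3.52-fold (2.00 to 5.97) higher in BAT. Fzd6 was at 81.9 CPM (50.7 to 125, 21 UMIs) against 19.6 (14.7 to 25.7, 53 UMIs) in the other single-positive nuclei, 4.17-fold (2.39 to 7.04), in taPVAT and 3.01-fold (1.76 to 4.98) higher in BAT. Ctnnb1, which also serves at cell junctions, was at 303 CPM (253 to 359, 131 UMIs) against 89.6 (80.0 to 100, 318 UMIs) in the other single-positive nuclei, 3.38-fold (2.74 to 4.16), in BAT and 2.50-fold (1.80 to 3.40) higher in taPVAT. Notch3 nuclei of both depots carried more Lrp5, 2.06-fold (1.11 to 3.52) in taPVAT with 14 UMIs and 2.44-fold (1.62 to 3.54) in BAT with 30 UMIs. That was 1 of 21 members in taPVAT (3.14% of all genes), and with Tcf7l1 2 of 20 in BAT (6.83%). In taPVAT Lrp5 was at 203.0 CPM (111.0 to 340.6) in Notch3 nuclei and 159.9 (114.7 to 216.9, 41 UMIs) in Ptprb nuclei, with overlapping intervals. In BAT it was at 206.9 CPM (139.6 to 295.4) and 80.9 (56.3 to 112.5, 35 UMIs), with no overlap.

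Pdgfra nuclei of taPVAT, taken as ASPCs from the class gene, held 3 of 21 members (background 5.09%), of which 2 were secreted inhibitors. Dkk2 was at 542 CPM (407 to 707, 54 UMIs) in these 78 nuclei, 97.5 (63.1 to 144, 25 UMIs) in Ptprb nuclei and 9.90 (6.40 to 14.6, 25 UMIs) in Plin1 nuclei, 30.4-fold (20.3 to 45.4) over the rest. Its Ptprb level in taPVAT was thus also above that in Plin1 nuclei, with no overlap. Sfrp1 was at 171 CPM (99.4 to 273, 17 UMIs) against 8.40 (5.38 to 12.5, 24 UMIs) in the other single-positive nuclei, 20.3-fold (10.2 to 39.4). Tcf7l1 was at 542 CPM (407 to 707, 54 UMIs) against 188 (172 to 204, 536 UMIs) in the other single-positive nuclei, 2.89-fold (2.14 to 3.83), with Ptprb nuclei at 425 CPM (349 to 513, 109 UMIs) and Plin1 nuclei the lowest at 157 CPM (142 to 173, 397 UMIs). Sfrp4 had 8 of its UMIs there, 19.1-fold (6.78 to 50.9), and stayed under the limit of 10 UMIs for a call. In BAT only 19 nuclei were Pdgfra-positive alone, too few for a class. Dkk2 was called there to Ptprb nuclei, at 41.6 CPM (24.6 to 65.7, 18 UMIs) against 5.07 (3.00 to 8.01, 18 UMIs) in the other single-positive nuclei, 8.20-fold (4.03 to 16.7), and Tcf7l1 to Notch3 nuclei, at 607 CPM (487 to 748, 88 UMIs) against 190.5 (177 to 205, 731 UMIs) in the other single-positive nuclei, 3.19-fold (2.52 to 3.98). Ptprb nuclei of BAT held Tcf7l1 at 497 CPM (433 to 568, 215 UMIs), an interval that overlapped that of Notch3 nuclei. Its level was again lowest in Plin1 nuclei, at 148 CPM (135 to 161, 499 UMIs).

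The members compared but called to no class in taPVAT were, besides Sfrp4, Lgr4, Tcf7, Lef1, Wnt5a, Dkk3, Tcf7l2 and Fzd1, at 1.58-fold to 4.53-fold in their highest class, those above 2-fold with under 10 UMIs there. In BAT they were Lgr5, Frzb, Wnt5a, Sfrp1, Tcf7l2 and Fzd1, at 1.15-fold to 2.73-fold in their highest class. For Wnt5a in BAT that class was Notch3 on 1 UMI, at 6.90 CPM, while the other 23 of its 24 UMIs lay in Plin1 nuclei, at 6.80 CPM (4.31 to 10.2, 23 UMIs). With the fold taken against the next highest class in place of all other nuclei, 6 members were called in taPVAT in place of 13.

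In cow WAT Pdgfra nuclei took the most members. That class held 205 nuclei there, against 78 in taPVAT and 19 in BAT, so its calls are not on the same footing in the 3 libraries. Of 30 members compared 15 were called, where 30.0% of 14939 genes were. With the fold taken against the next highest class, 9 members were called. Pdgfra nuclei took 8 (background 5.79%), Plin1 nuclei 4 (9.13%), Ptprb nuclei 2 (7.82%) and Notch3 nuclei 1 (7.25%). The 532 nuclei that held more than 1 of the class genes were in no class. Plin1, Ptprb, Pdgfra and Notch3 nuclei held 1049409, 1903244, 1238370 and 1217103 of the 16827260 UMIs of the library. Nuclei with none of the class genes held 2221642. The class calls in cow WAT thus rest on the smaller part of its counts.

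**Figure D3:**
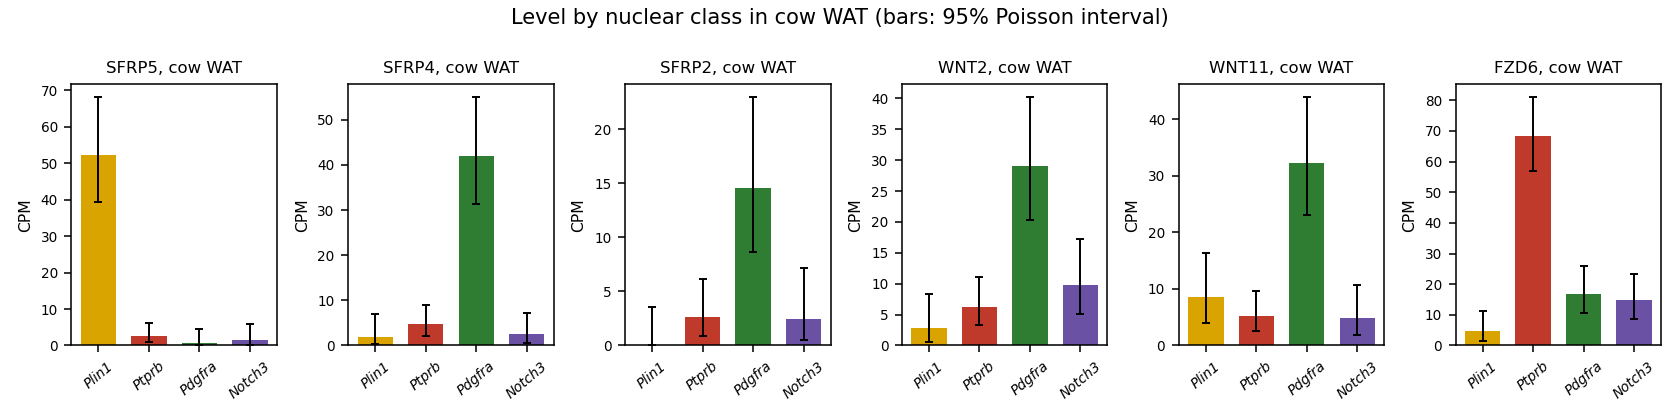
Level of 6 members by class of nuclei in cow WAT, in CPM on a linear axis from 0, with 95% Poisson intervals. SFRP5 stood at 52.4 CPM in Plin1 nuclei and at 0.807 to 2.63 CPM in the other classes, SFRP4, SFRP2, WNT2 and WNT11 were highest in Pdgfra nuclei, and FZD6 in Ptprb nuclei.

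Of the inhibitors among the members, SFRP5 alone was called to the cow Plin1 nuclei, at 52.4 CPM (39.5 to 68.2, 55 UMIs). It was at 2.63 CPM (0.853 to 6.13, 5 UMIs) in Ptprb nuclei, 0.807 (0.0204 to 4.50, 1 UMI) in Pdgfra nuclei and 1.64 (0.199 to 5.94, 2 UMIs) in Notch3 nuclei. Its fold over the rest was 28.6-fold (13.5 to 69.4). The other 3 calls to Plin1 nuclei were LGR4 at 70.5 CPM (55.4 to 88.5, 74 UMIs) and 2.36-fold (1.75 to 3.17), FZD3 at 2.42-fold (1.64 to 3.52), and WNT5A with 10 UMIs at 3.46-fold (1.34 to 8.74). LGR4 was also at 55.9 CPM (43.4 to 70.8, 68 UMIs) in Notch3 nuclei, and WNT5A at 4.85 CPM (1.78 to 10.55, 6 UMIs) in Pdgfra nuclei. Both intervals overlapped those of Plin1 nuclei. LRP6, which led the brown Plin1 nuclei, was at 218 CPM (191 to 248, 229 UMIs) in cow Plin1 nuclei and highest in Pdgfra nuclei, at 497 CPM (459 to 538, 616 UMIs) against 204 (190.1 to 218, 849 UMIs) in the other single-positive nuclei, 2.44-fold (2.20 to 2.71).

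The secreted members of the cow Pdgfra nuclei were SFRP4 at 42.0 CPM (31.4 to 55.1, 52 UMIs) against 3.36 (1.84 to 5.63, 14 UMIs) in the other single-positive nuclei, 12.5-fold (6.83 to 24.4), and SFRP2 at 7.58-fold (3.13 to 20.1) with 18 UMIs against 8. DKK2 was at 130.0 CPM (111 to 152, 161 UMIs) against 37.4 (31.8 to 43.8, 156 UMIs) in the other single-positive nuclei, 3.48-fold (2.77 to 4.36), with Notch3 nuclei next at 74.0 CPM (59.5 to 90.9, 90 UMIs). The ligands WNT11 and WNT2 were 5.39-fold (3.19 to 9.27) and 4.49-fold (2.65 to 7.69) higher, on 40 and 36 UMIs. AXIN2 was 4.36-fold (2.21 to 8.74) higher on 22 UMIs and LEF1 2.02-fold (1.12 to 3.57) on 21. Notch3 nuclei held AXIN2 at 6.57 CPM (2.84 to 12.95, 8 UMIs) and LEF1 at 10.7 CPM (5.69 to 18.3, 13 UMIs). Both intervals overlapped those of Pdgfra nuclei. AXIN2 was thus called to Pdgfra nuclei in cow WAT, and Axin2 to Plin1 nuclei in the brown rat depots. In the Pdgfra nuclei of taPVAT Axin2 had 1 UMI, at 10.0 CPM (0.254 to 55.9), an interval that overlapped that of Plin1 nuclei. In BAT the 19 Pdgfra nuclei were too few for a class. These calls therefore do not show a difference between the species. Ptprb nuclei carried FZD6 at 68.3 CPM (57.1 to 81.1, 130 UMIs) against 12.6 (9.12 to 16.9, 44 UMIs) in the other single-positive nuclei, 5.44-fold (3.84 to 7.84), and LRP5 at 209 CPM (189 to 231, 398 UMIs) against 94.7 (84.8 to 106, 332 UMIs) in the other single-positive nuclei, 2.21-fold (1.90 to 2.56). Notch3 nuclei carried WNT9A at 2.11-fold (1.29 to 3.39). Its level there, 24.65 CPM (16.6 to 35.2, 30 UMIs), overlapped that in Pdgfra nuclei, 17.0 CPM (10.5 to 25.9, 21 UMIs). The other 15 members compared lay between 1.32-fold and 1.90-fold in their highest class, and included TCF7L1, TCF7L2, CTNNB1, WIF1, WNT5B and 3 R-spondins.

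In the shallower white rat libraries fewer members could be compared. In the 10x mesPVAT library 5 of 10 were called (background 31.8%). Plin1 nuclei took Tcf7l2 and Fzd4 (background 15.2%), with Tcf7l2 at 2045 CPM (1842 to 2264, 371 UMIs) against 984 (842 to 1144, 169 UMIs) in the other single-positive nuclei, 2.08-fold (1.73 to 2.51), and Fzd4 on 22 UMIs at 2.97-fold (1.23 to 8.24). Ptprb nuclei took Tcf7l1 on 19 UMIs at 2.57-fold (1.48 to 4.25) and Fzd6 on 13 UMIs at 5.87-fold (2.78 to 11.8) (background 6.18%). These nuclei also held lymphatic endothelial markers at 1269 CPM. The 503 Msln nuclei, a class that reached 50 nuclei in this library alone, took Rspo1 (background 10.4%). Rspo1 was at 153 CPM (90.7 to 242, 18 UMIs) in Msln nuclei and 16.5 (3.41 to 48.3, 3 UMIs) in Plin1 nuclei, 9.01-fold (2.97 to 36.6) over the rest. Among the classes of at least 50 nuclei Lrp6 did not vary beyond its intervals. It ran from 212 CPM (138 to 314, 25 UMIs) in Msln nuclei to 261 (105 to 538, 7 UMIs) in Ptprb nuclei. Lrp5, Lgr4, Ctnnb1 and Wnt5a were also called to no class, at 1.10-fold to 3.88-fold, Lrp5 and Ctnnb1 with under 10 UMIs in Ptprb nuclei. The Pdgfra class held 42 nuclei, too few for a call. Wnt5a was at 440.6 CPM (201.5 to 836.5, 9 UMIs) in it. In Plin1 nuclei Wnt5a was at 82.7 CPM (46.3 to 136.4, 15 UMIs) and in Msln nuclei at 119.0 (65.1 to 199.7, 14 UMIs).

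In the library labelled mesPVAT 2 of 15 members were called, a share below the 19.4% of all genes. Axin2 was called to Plin1 nuclei (background 8.43%), at 134 CPM (99.8 to 175, 52 UMIs) against 42.7 (20.5 to 78.5, 10 UMIs) in the other single-positive nuclei, 3.13-fold (1.57 to 6.91). Tcf7l1 was called to Ptprb nuclei (background 9.86%), at 753 CPM (624 to 900.2, 120 UMIs) against 248 (205 to 298, 115 UMIs) in the other single-positive nuclei, 3.04-fold (2.33 to 3.96). To Pdgfra nuclei none was called, against 1.15% of all genes, and Dkk2 was 3.84-fold (1.16 to 10.1) higher there with under 10 UMIs. The other 12 lay between 1.09-fold and 1.79-fold. In the library labelled RP fat none of 6 members was called, where 16.3% of all genes were (8.08% to Plin1, 5.68% to Ptprb and 2.54% to Pdgfra nuclei). Lgr4, Lrp6, Tcf7l1, Lrp5, Tcf7l2 and Fzd1 lay between 0.892-fold and 1.77-fold in their highest class that could be called.

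Libraries were then set against each other, gene by gene, as ratios of CPM over all nuclei with an exact 95% interval, and a member is named where the ratio passed 2-fold. With 1 library per depot these ratios describe 2 libraries, and a share of members past 2-fold is read against the share of all genes. Within the brown type, taPVAT exceeded BAT for 8 of 39 members (background 5.97%) and fell below it for none (1.10%). Secreted inhibitors made up 4 of the 8. Sfrp4 was 6.76-fold (3.52 to 14.2) higher in taPVAT, Sfrp2 4.80-fold (2.16 to 12.1), Dkk3 3.04-fold (1.82 to 5.24) and Sfrp1 2.87-fold (1.91 to 4.39). The others were Rspo1 at 4.25-fold (1.78 to 11.7), Fzd5 at 2.30-fold (0.853 to 6.81), Wnt2b at 2.03-fold (0.907 to 4.75) and Tcf7 at 2.02-fold (1.33 to 3.11), of which Fzd5 and Wnt2b had intervals that reached below 1. The markers of ASPCs moved the same way over all nuclei, at 587 CPM in taPVAT and 196 in BAT, and their part in the ratios was not tested. The median ratio was 1.15 over the members and 1.08 over all genes compared. The members lower in taPVAT with an interval below 1, none past 2-fold, were the following 6. Wnt5b had a ratio of 0.618 (0.561 to 0.680), Wnt11 of 0.668 (0.491 to 0.902), Lgr4 of 0.741 (0.678 to 0.810), Lgr6 of 0.754 (0.607 to 0.934), Fzd4 of 0.809 (0.741 to 0.883) and Ctnnb1 of 0.866 (0.774 to 0.969). Lrp6 was near 1, at 1.15 (1.12 to 1.19).

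**Figure D4:**
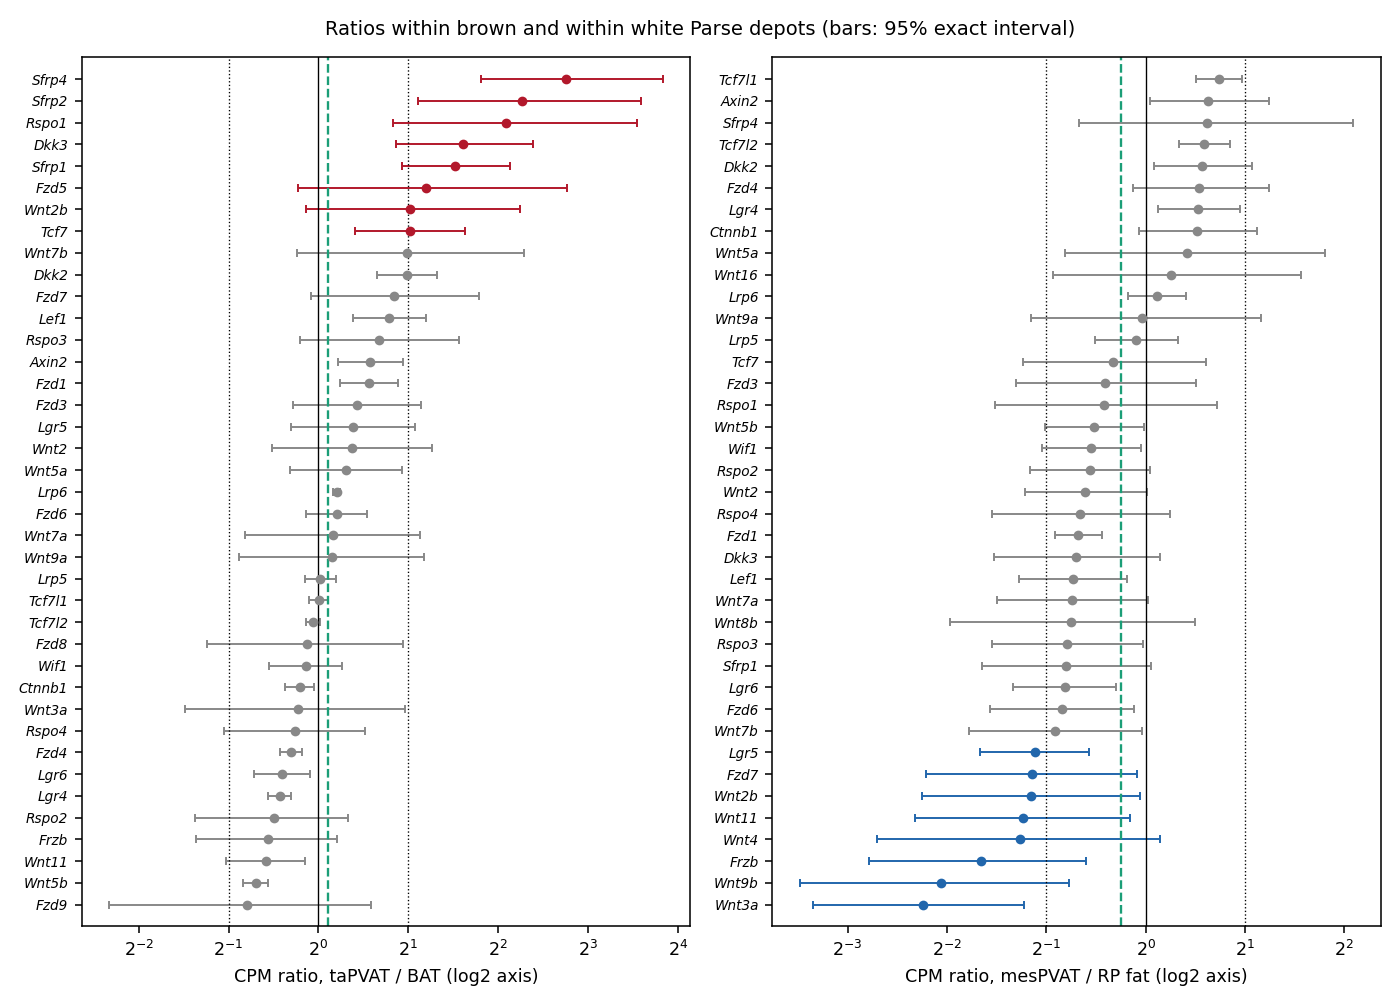
Ratio of levels for each member compared, taPVAT over BAT and mesPVAT over RP fat, on a log2 axis with exact 95% intervals. Red points are at least 2-fold higher, blue at least 2-fold lower, dotted lines mark 0.5 and 2, and the green dashed line is the median ratio of all genes compared. Of 39 members 8 were higher in taPVAT than in BAT, and 8 of 39 were lower in mesPVAT than in RP fat.

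Within the white type, and as labelled, since the order would turn if the 2 labels were exchanged, mesPVAT fell below RP fat for 8 of 39 members (background 9.79%) and exceeded it for none (5.88%). Wnt3a was 4.74-fold (2.34 to 10.2) lower in mesPVAT, Wnt9b 4.17-fold (1.70 to 11.2) and Frzb 3.17-fold (1.51 to 6.88). The other 5, Wnt4, Wnt11, Wnt2b, Fzd7 and Lgr5, were 2.17-fold to 2.40-fold lower. All 8 were at or below 73.3 CPM in both libraries, and 7 of them at or below 34.3 CPM. The sum over all olfactory receptor genes was also lower in mesPVAT (707 against 1090 CPM), and the part of stray reads in these ratios was not tested. The median ratio was 0.656 over the members and 0.840 over all genes compared. The well counted members lay on both sides of it, with Fzd1 at 0.625 (0.530 to 0.737), Tcf7l1 at 1.66 (1.42 to 1.95), Lgr4 at 1.44 (1.09 to 1.93) and Lrp6 at 1.08 (0.884 to 1.32).

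The 2 mesPVAT libraries, 10x and Parse, were set against each other in the same way. The 10x library was higher for 6 of 37 members (background 22.7%) and lower for 18 (32.4%). Wnt5a was 8.16-fold (5.12 to 13.6) higher in the 10x library, Fzd8 8.03-fold (2.76 to 31.9) and Fzd6 6.43-fold (4.47 to 9.49). Tcf7l2 was 4.39-fold (3.97 to 4.86) higher, Rspo1 4.02-fold (2.35 to 7.15) and Wnt2b 3.30-fold (1.77 to 6.48). The mesothelial class to which Rspo1 was called held 503 nuclei in the 10x library and 17 in the Parse library. Lower in the 10x library were Fzd1, at least 81.7-fold against a limit of 3 UMIs, Wnt2, at least 13.4-fold, Wnt7a, at least 8.47-fold, and Rspo4, at least 6.47-fold, none of which had a UMI there. Rspo2 was 21.3-fold (5.63 to 180.0) lower, Lef1 16.2-fold (5.30 to 80.5), Wif1 15.5-fold (5.83 to 58.2) and Lgr6 12.9-fold (4.81 to 48.6). The other 10, Lgr5, Wnt16, Wnt7b, Dkk2, Rspo3, Sfrp4, Wnt5b, Fzd7, Dkk3 and Tcf7, were 2.61-fold to 8.37-fold lower. An exchange of the white Parse labels would put RP fat in place of the Parse mesPVAT library here. Kit, annotation, isolation and batch differed together between these libraries and cannot be told apart. Lrp6, at a ratio of 1.16 (0.977 to 1.37), and Lrp5, at 0.925 (0.705 to 1.21), were among the 13 members within 2-fold.

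White and brown depots were compared in 4 pairs of Parse libraries, which share libraries and so are not independent of each other. Lower in white fat were 4 of 38 members for mesPVAT against taPVAT (background 9.96%), 5 of 39 for mesPVAT against BAT (9.86%), 4 of 38 for RP fat against taPVAT (16.6%) and 6 of 38 for RP fat against BAT (16.0%). The shares of members were close to those of all genes. The sizes were not all alike. Lrp6 was 9.63-fold (8.59 to 10.8) lower in mesPVAT than in taPVAT, 8.35-fold (7.46 to 9.39) lower than in BAT, and in RP fat 10.4-fold (8.83 to 12.3) and 9.02-fold (7.66 to 10.7) lower. Of the genes compared in each pair (18820 to 19911), 71 to 135 had a lower ratio than Lrp6. Fzd4 was 3.71-fold (2.92 to 4.76) and 4.58-fold (3.62 to 5.87) lower in mesPVAT than in taPVAT and BAT, and 5.38-fold (3.65 to 8.29) and 6.65-fold (4.52 to 10.2) lower in RP fat. Wnt5b was 2.52-fold (2.00 to 3.21) and 4.08-fold (3.26 to 5.16) lower in mesPVAT, and 2.84-fold (2.19 to 3.75) lower in RP fat than in BAT, with a ratio of 0.569 (0.429 to 0.743) to taPVAT that missed 2-fold.

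**Figure D5:**
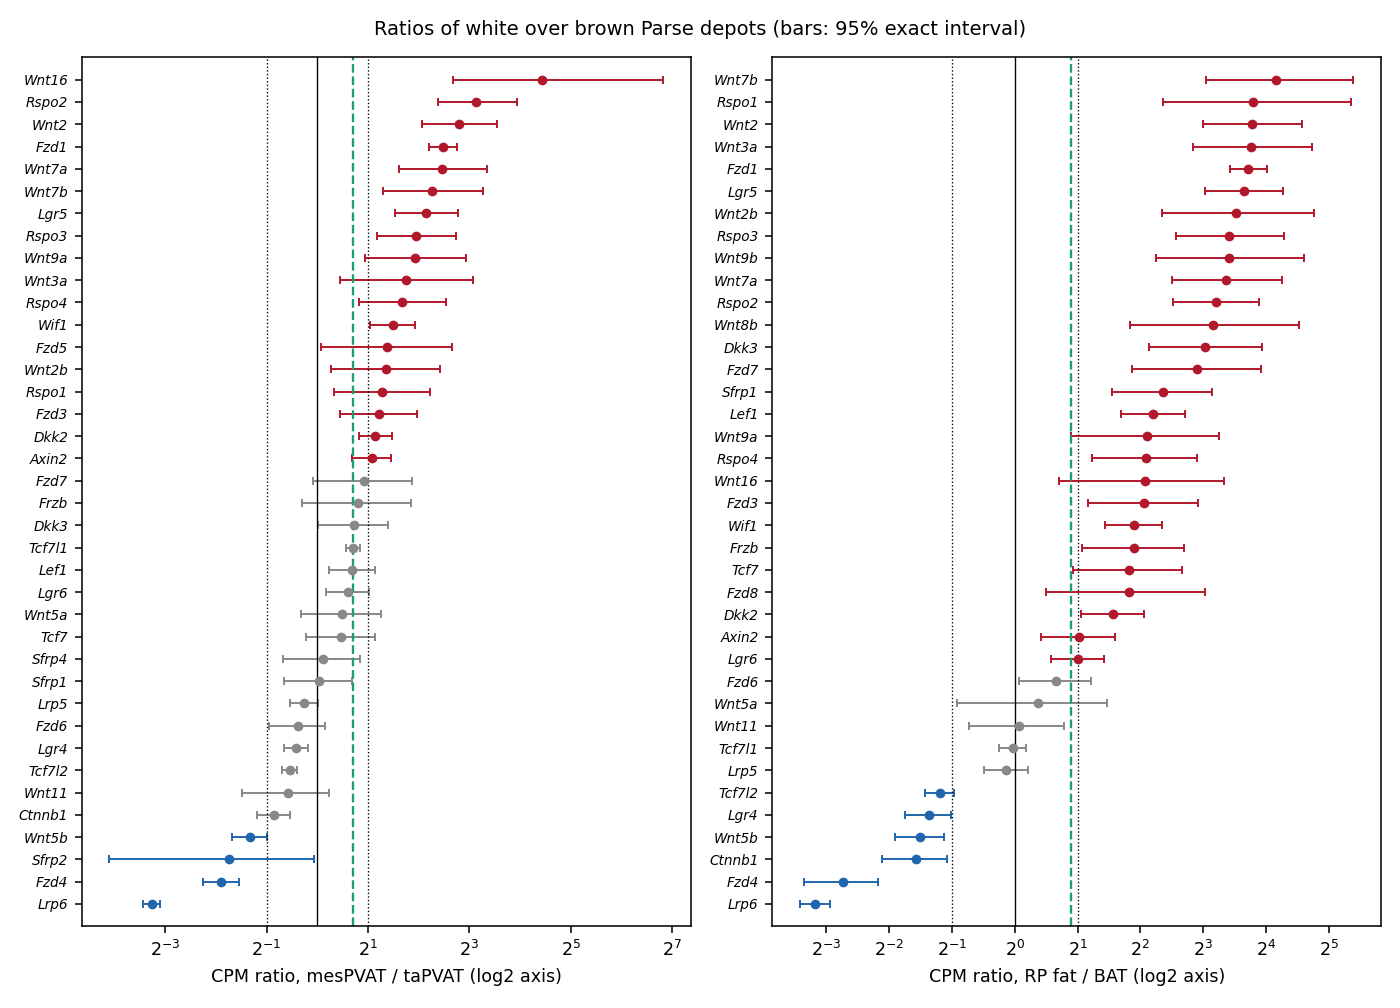
Ratio of levels, white over brown, for each member compared, mesPVAT over taPVAT and RP fat over BAT, on a log2 axis with exact 95% intervals. Red points are at least 2-fold higher and blue at least 2-fold lower in white fat, dotted lines mark 0.5 and 2, and the green dashed line is the median ratio of all genes compared. The lowest point of each panel is Lrp6, at 9.63-fold and 9.02-fold lower in white fat.

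The other members lower in white fat were Sfrp2 in mesPVAT against taPVAT, 3.36-fold (1.05 to 17.2) on 3 UMIs, and Wnt11 and Ctnnb1 in mesPVAT against BAT, 2.24-fold (1.31 to 4.12) and 2.09-fold (1.69 to 2.62). In RP fat Ctnnb1 was 2.58-fold (1.83 to 3.77) and 2.98-fold (2.12 to 4.34) lower than in taPVAT and BAT, Tcf7l2 2.19-fold (1.88 to 2.57) and 2.29-fold (1.96 to 2.68), and Lgr4 2.59-fold (2.03 to 3.35) lower than in BAT. Taking all genes, the white libraries were shifted upwards, with a median ratio of 1.61 to 1.91 in the 4 pairs.

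Higher in white fat were 18 of 38 members for mesPVAT against taPVAT (background 45.0%), 25 of 39 for mesPVAT against BAT (48.6%), 21 of 38 for RP fat against taPVAT (46.0%) and 27 of 38 for RP fat against BAT (48.8%). In that order the shares of members were 47.4%, 64.1%, 55.3% and 71.1%. The share for mesPVAT against taPVAT was near that of all genes, and those against BAT were the furthest above it. Values are given for each member over the pairs in which it passed 2-fold. Apart from those of Fzd1 they carry no interval. Of the receptors, Fzd1 was 5.58-fold (4.64 to 6.73) and 8.23-fold (6.77 to 10.0) higher in mesPVAT than in taPVAT and BAT, and 8.93-fold (7.37 to 10.8) and 13.2-fold (10.8 to 16.2) higher in RP fat. Lgr5 was 4.42-fold to 12.5-fold higher, Fzd3 2.33-fold to 4.18-fold, Fzd7 3.39-fold to 7.47-fold, Fzd8 3.54-fold and 3.88-fold, Lgr6 2.02-fold and 2.67-fold, and Fzd5 2.60-fold in mesPVAT against taPVAT. Of the ligands, Wnt2 was 6.93-fold to 13.7-fold higher, Wnt2b 2.56-fold to 11.6-fold, Wnt3a 2.86-fold to 15.9-fold, Wnt7a 5.51-fold to 10.3-fold, Wnt7b 4.81-fold to 17.9-fold, Wnt9a 3.80-fold to 4.33-fold, Wnt9b 2.54-fold to 20.5-fold, Wnt16 4.20-fold to 21.6-fold and Wnt8b 5.34-fold and 8.97-fold. Each of these ligands held at most 54 UMIs in either white library. The largest folds of Wnt9b and Wnt16 were against taPVAT, where each had under 10 UMIs. Both folds of Fzd8 and the smallest folds of Wnt9b and Wnt16 rested on under 10 UMIs in the white library. Rspo1 was 2.44-fold to 13.9-fold higher, Rspo2 6.21-fold to 13.0-fold, Rspo3 3.88-fold to 10.7-fold and Rspo4 2.68-fold to 5.07-fold. The largest fold of Rspo1 rested on 7 UMIs in BAT. Of the inhibitors, Wif1 was 2.55-fold to 4.11-fold higher, Dkk2 2.22-fold to 4.38-fold, Dkk3 2.68-fold to 8.15-fold, Sfrp1 2.94-fold and 5.12-fold, Frzb 3.74-fold and 5.51-fold, and Sfrp4 7.28-fold in mesPVAT against BAT. In the nuclear arm, Lef1 was 2.68-fold to 4.62-fold higher, Axin2 2.04-fold to 3.15-fold, and Tcf7 2.81-fold and 3.54-fold. All olfactory receptor genes together summed to 707 and 1090 CPM in the white libraries against 125 and 110.3 in the brown ones, a difference in the same direction whose part in these ratios was not tested.

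The comparison was then made within Plin1 nuclei, an alternative added after the data were seen, because the share of nuclei in that class differed between depots (556 of 3028 in mesPVAT, 240 of 2805 in RP fat, 1208 of 2708 in taPVAT and 1430 of 2699 in BAT). Lrp6 was at 144 CPM (109 to 187, 56 UMIs) in the Plin1 nuclei of mesPVAT, 197 (115 to 315, 17 UMIs) in those of RP fat, 2333 (2274 to 2394, 5894 UMIs) in those of taPVAT and 1988 (1941 to 2036, 6722 UMIs) in those of BAT. The white levels were 16.2-fold (12.5 to 21.5) and 13.8-fold (10.6 to 18.3) lower in mesPVAT than in taPVAT and BAT, and 11.8-fold (7.40 to 20.4) and 10.1-fold (6.30 to 17.4) lower in RP fat. Wnt5b was at 30.8 CPM (15.9 to 53.9, 12 UMIs) in the Plin1 nuclei of mesPVAT, 34.7 (7.16 to 102, 3 UMIs) in RP fat, 152 (137 to 168, 384 UMIs) in taPVAT and at 258 (241 to 275, 871 UMIs) in BAT. It was 4.93-fold (2.79 to 9.62) and 8.35-fold (4.76 to 16.2) lower in mesPVAT than in taPVAT and BAT, and 4.38-fold (1.49 to 21.3) and 7.42-fold (2.53 to 36.0) lower in RP fat. Fzd4 was at 59.1 CPM (37.5 to 88.7, 23 UMIs) in mesPVAT, 11.6 (0.293 to 64.5, 1 UMI) in RP fat, 194 (177 to 212, 490 UMIs) in taPVAT and at 255 (238 to 272, 862 UMIs) in BAT. The brown levels of all 3 lay above the white ones with no overlap of intervals. The other adipocyte markers of these nuclei were also lower in white fat (5919 and 2107 CPM against 9186 and 10214), and their part in the ratios was not tested. In Ptprb nuclei Lrp6 was at 201 CPM (137 to 283, 32 UMIs) in mesPVAT, 139.8 (60.3 to 275, 8 UMIs) in RP fat, 445 (367 to 534, 114 UMIs) in taPVAT and at 379 (323 to 442, 164 UMIs) in BAT.

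Axin2 and Fzd1 ran the other way in Plin1 nuclei. Axin2 was at 134 CPM (99.8 to 175, 52 UMIs) in mesPVAT, 92.6 (39.99 to 182, 8 UMIs) in RP fat, 32.5 (25.8 to 40.3, 82 UMIs) in taPVAT and at 25.1 (20.1 to 31.1, 85 UMIs) in BAT, so that mesPVAT was 4.12-fold (2.85 to 5.90) higher than taPVAT. Fzd1 was at 134 CPM (99.8 to 175, 52 UMIs) in mesPVAT, 266 (169 to 399.6, 23 UMIs) in RP fat, 23.8 (18.1 to 30.6, 60 UMIs) in taPVAT and at 17.1 (13.0 to 22.2, 58 UMIs) in BAT. The white and brown intervals did not overlap, except those of Axin2 in RP fat and taPVAT. Fzd1 was not particular to Plin1 nuclei in RP fat. There it was at 279.5 CPM (159.8 to 454.0, 16 UMIs) in Ptprb nuclei and 340.9 (295.9 to 390.9, 205 UMIs) in nuclei with none of the 5 class genes. Olfactory receptor genes, given above, were also higher in the white Parse libraries. The part of stray reads in these levels was not tested.

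A list of 60 other genes of the pathway (β-catenin destruction complex, Dishevelled and its partners, co-receptors of Wnt5a, secretion, targets and further inhibitors) was followed in the same way. The numbers called to a class were, for the 10x library, 10 of 23 compared, for mesPVAT 7 of 31, for RP fat 2 of 8, for taPVAT 15 of 43, for BAT 14 of 47 and for cow WAT 16 of 49. These shares, 43.5%, 22.6%, 25.0%, 34.9%, 29.8% and 32.7%, stood beside the 31.8%, 19.4%, 16.3%, 31.0%, 38.1% and 30.0% of all genes given above. Those called in at least 2 libraries are given here by role. Apart from that of Ror1 in the 10x library, these class folds carry no interval, so an excess beyond counting error is not claimed for them. Of the Wnt5a co-receptors, Ror1 was 14.9-fold (10.7 to 21.2) higher in the Msln nuclei of the 10x library, at 2592 CPM (2309.6 to 2900.3, 305 UMIs), 9.67-fold and 21.8-fold higher in the Notch3 nuclei of taPVAT and BAT, and 2.43-fold and 2.97-fold higher in the Pdgfra nuclei of RP fat and cow WAT. Ror2 was 24.7-fold and 4.74-fold higher in the Pdgfra nuclei of taPVAT and cow WAT, and 2.42-fold higher in the Ptprb nuclei of RP fat.

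Of the genes of the planar polarity arm and casein kinase, the following were called in at least 2 libraries, to classes that differed between them. The formin Daam2 was 7.07-fold, 12.3-fold and 6.71-fold higher in the Notch3 nuclei of taPVAT, BAT and cow WAT, and 2.19-fold higher in the Plin1 nuclei of the 10x library. Its relative Daam1 was 4.00-fold and 2.95-fold higher in the Notch3 nuclei of taPVAT and BAT. The planar polarity gene Prickle2 was 2.95-fold and 3.95-fold higher in the same nuclei, 2.68-fold in the Ptprb nuclei of the 10x library and 2.04-fold in the Pdgfra nuclei of cow WAT. Prickle1 was 3.63-fold higher in the Notch3 nuclei of BAT, 5.20-fold in the Pdgfra nuclei of taPVAT and 2.22-fold in the Plin1 nuclei of cow WAT. The kinase gene Csnk1e was 2.22-fold higher in the Ptprb nuclei of taPVAT and 2.24-fold in the Notch3 nuclei of cow WAT. The skeletal muscle markers of brown Notch3 nuclei, given above, stand beside these values, and their part was not tested.

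Plin1 nuclei carried more Bcl9l, a coactivator of β-catenin, by 3.29-fold in the 10x library, 2.24-fold in taPVAT, 2.74-fold in BAT and 2.36-fold in cow WAT. They carried more Apcdd1, a membrane inhibitor, by 2.03-fold in the 10x library, 3.51-fold in mesPVAT and 5.49-fold in cow WAT. The target gene Myc was 3.49-fold, 6.02-fold and 3.38-fold higher in the Plin1 nuclei of the 10x library, mesPVAT and BAT, and 2.26-fold higher in the Pdgfra nuclei of cow WAT. The BAT value of Myc rested on 38 UMIs in Plin1 nuclei, 1 in Ptprb nuclei and 1 in Notch3 nuclei, too few outside Plin1 nuclei for a firm fold. Tspan12, a partner of FZD4, was 3.08-fold higher in the Plin1 nuclei of the 10x library and 2.10-fold in the Notch3 nuclei of cow WAT. Ptprb nuclei carried more Tle4, a corepressor of TCF factors, by 2.38-fold in mesPVAT, 3.09-fold in taPVAT and 2.96-fold in BAT, and Msln nuclei by 3.09-fold in the 10x library. Apc, a scaffold of the destruction complex, was 2.80-fold and 2.85-fold higher in the Ptprb nuclei of taPVAT and BAT. The glypican Gpc3 was 6.83-fold higher in the Msln nuclei of the 10x library and 7.27-fold in the Pdgfra nuclei of taPVAT, and Wls, which carries Wnt proteins to the cell surface, 3.03-fold in those Msln nuclei and 2.18-fold in the Notch3 nuclei of cow WAT.

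Between the brown depots 3 of 53 genes of the list passed 2-fold, all higher in taPVAT, and none was lower, shares near those of all genes given above. They were Gpc3 at 2.45-fold (1.91 to 3.17), Ror2 at 2.45-fold (1.86 to 3.24) and Draxin, a secreted inhibitor, at 2.10-fold (1.01 to 4.53).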

How the data were processed

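Single-nucleus RNA was measured in 5 rat libraries and 1 cow library. The deposited files held raw counts of UMIs per gene and nucleus, made by the authors with split-pipe for the Parse libraries (GRCr8 for rat and ARS-UCD1.3 for cow) and with Cell Ranger for the 10x library, for which the methods name Rnor_6.0. The submitters' processing notes also name FastQC and Scanpy. Some gene IDs of the 10x file look newer than Rnor_6.0, so its annotation is not certain. The counts were used as deposited, in all nuclei of each file, with no filter on nuclei and no removal of doublets.

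UMIs were summed over nuclei and divided by the library total, 845316 to 16827260 UMIs, to give CPM. Exact 95% Poisson intervals were placed on levels and exact conditional binomial intervals on ratios, and they cover counting error only. A level of 0 was set to 3 counts for a bound. Members were matched by symbol in any case. A gene was compared between classes with at least 20 UMIs in single-positive nuclei, and between libraries with at least 20 UMIs in both together, and was called at 2-fold. All genes of a table were run by the same rule for the background. Python 3.11.15, numpy 2.4.6, scipy 1.17.1, pandas 2.3.3 and matplotlib 3.10.9 were used, and the scripts were tested on simulated data.

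A member with at least 10 UMIs in at least 1 library was named with its level in the libraries where it reached 10 UMIs, and in others it was compared with. It was named by class wherever it was called, and between depots past 2-fold. Genes of the pathway list were named where called in at least 2 libraries or past 2-fold between taPVAT and BAT. The members and lists were chosen with earlier results of these data known. Alternatives were other limits on nuclei and UMIs, other class rules, single sublibraries, a mean of CPM over nuclei, totals without mitochondrial genes and the top gene, and a fold of 3.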

Additional observations from a re-analysis of the deposited data

How the results depend on the processing

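No paired analysis was possible because each condition has 1 library. By class, 480 fold values were recomputed, each under the rule of its alternative. Of these 370 kept the call to the same class, 109 lost the call and 1 reversed, Wnt11 in the Plin1 nuclei of taPVAT at 0.930 in sublibrary 2 alone. Depot ratios of members higher in white than in brown fat were left out here, and only their counts of calls were recomputed. Of the 434 other depot ratios 353 were kept, 80 lost the call and 1 reversed, Fzd7 between 10x and Parse mesPVAT at 1.21 in nuclei of at least 500 UMIs. With those nuclei, 11 members reached 10 UMIs in the 10x library and 21 in RP fat. The comparison within Plin1 nuclei was chosen after seeing the data. Of 449 recomputed levels of chosen members, 90 moved outside their Poisson interval. In cow WAT 11 of 47 members did so in each sublibrary alone, and in RP fat 0 and 2 of 36. With a mean of CPM over nuclei, 24 of 47 did so in cow WAT, 13 of 39 in taPVAT and 1 of 36 in RP fat. A gap between Poisson intervals thus does not cover the choice of nuclei or of averaging.

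Members called by class in the 10x library were 1 with nuclei of at least 500 UMIs, 1 with 2 UMIs of the class gene, 10 with classes from marker lists, 3 against the next highest class, 2 at 3-fold and 2 with 50 UMIs required. In mesPVAT they were 4, 4 and 0 with 2 UMIs, marker lists and the next class. In taPVAT they were 8 and 7 in sublibraries 1 and 2 alone, 6 against the next class and 8 at 3-fold. In cow WAT they were 9 against the next class and 9 at 3-fold.

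Between taPVAT and BAT, 4 members were higher at 3-fold, 4 with 50 UMIs and 1 was lower with a mean of CPM. For mesPVAT against RP fat, 1 was higher with nuclei of at least 500 UMIs, 1 with a mean of CPM, and 3 and 1 were lower at 3-fold and with 50 UMIs. For 10x against Parse mesPVAT, 10 were lower with nuclei of at least 500 UMIs and 9 with 50 UMIs. Of the white members higher than brown, 11 at 3-fold and 11 with 50 UMIs were left for mesPVAT against taPVAT, and with 50 UMIs 15 for mesPVAT against BAT, 10 for RP fat against taPVAT and 16 for RP fat against BAT. Lower ones at 3-fold were 3 for mesPVAT against BAT, 2 for RP fat against taPVAT and 2 for RP fat against BAT, and 3 for mesPVAT against BAT with nuclei of at least 500 UMIs. A higher fold or UMI minimum leaves fewer calls by its construction; the cause of the other changes was not tested. Totals without mitochondrial genes and the top gene moved every white over brown ratio by -0.16 to -0.11 on the log2 scale.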
